A study of Mus musculus with 56 samples.

Results

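The nuclear-encoded subunits of mitochondrial oxidative phosphorylation were followed in the livers of 56 mice. Genes were taken by symbol: the Nduf subunits of complex I, Sdha to Sdhd of complex II, the Uqcr genes and Cyc1 of complex III, Cycs, the Cox4 to Cox8 genes of complex IV and the Atp5 genes of complex V, with the Ndufaf assembly factors left out. This gave 87 of the 21935 genes in the deposited count table. A gene was tested when at least 3 mice had at least 5 reads, which 84 of the 87 passed, among 14105 genes in all. No measured difference between groups entered the choice, but the choice was made with earlier results of these data known. The 13 subunits encoded by mitochondrial DNA were not analysed here.

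Oxidative phosphorylation is carried out in the inner mitochondrial membrane. Complexes I and II pass electrons from NADH and succinate to ubiquinone, complex III passes them to cytochrome c, complex IV reduces oxygen, and complex V, the ATP synthase, uses the resulting proton gradient to make ATP. Hepatocytes are rich in mitochondria, and fat oxidation in the liver depends on this chain.

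The study asked how zalfermin, a long-acting analogue of the hormone FGF21, and semaglutide, a GLP-1 receptor agonist, act on the liver in diet-induced steatohepatitis, alone and together. Male C57BL/6J mice, 5 to 6 weeks old on arrival, ate chow or the AMLN diet (rich in trans fat, fructose and cholesterol) for 36 weeks and were then dosed under the skin daily for 8 weeks on the same diet. The 7 groups of 8 mice were chow vehicle, DIO-MASH vehicle, zalfermin at 0.05 mg/kg (low) or 0.2 mg/kg (high), semaglutide at 3 µg/kg (low) or 120 µg/kg (high), and the combination, with every group but chow on the AMLN diet. The study's methods give the combination as both low doses, whereas the series' design text gives both high doses, so the comparison of the combination with the low doses rests on the methods. No chow-fed mice received either agent, and the RNA analysed here was read at the end of dosing only. The study left out 1 low-dose semaglutide mouse at quality control, the labels did not mark it, and all 8 were kept.

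Libraries held 5228187 to 20885786 counted reads, with a median of 12206788. The liver label was checked against 8 hepatocyte genes, whose summed level ran from 58800 to 235000 CPM over all groups. Levels in CPM are reads scaled to a common total after library sizes were adjusted by edgeR's TMM factors, which follow the typical gene. It was higher in chow vehicle (146000 to 235000) than in DIO-MASH vehicle (58800 to 80700). Markers of hepatic stellate cells, the collagen-making cells of the liver, summed to 106 to 196 CPM in chow vehicle and 744 to 1290 CPM in DIO-MASH vehicle. In bulk liver, fewer cells of a type and less RNA per cell cannot be told apart. A pair of libraries stood apart from their groups. Chow vehicle mouse 8 had a mean Spearman correlation of 0.947 with the other chow mice, against 0.970 for the next lowest, and its cholangiocyte (bile duct cell) markers summed to 251 CPM against 2.72 to 9.53 CPM in the others. Low-dose semaglutide mouse 6 correlated more with chow mice (0.974) than with its own group (0.967). Counts of called members in chow vehicle against DIO-MASH vehicle are given without chow mouse 8 as well, and those for low-dose semaglutide without its mouse 6.

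The 87 genes comprised 38 of complex I, 4 of complex II, 9 of complex III, Cycs, 18 of complex IV and 17 of complex V. The 3 that could not be tested were all complex IV isoforms of other tissues: Cox7b2 and Cox8c had 0 reads in every mouse and Cox6a2, the heart and muscle form of subunit VIa, reached 5 reads in 1 mouse. Just inside the filter were Cox8b and Cox6b2, each with at least 5 reads in 7 mice, and Cox4i2 with 17 mice. Of the 84 tested, 78 had a median of at least 30 reads.

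Levels of different genes were compared as CPM per kilobase of exon, averaged over all 56 mice. The highest were the alpha and beta subunits of the ATP synthase, Atp5a1 at 412 and Atp5b at 335 CPM per kilobase, followed by the complex IV subunits Cox4i1 at 311, Cox6a1 at 305 and Cox8a at 271. For each subunit with alternative forms, the liver form was far above its partner on this scale. Cox4i1 exceeded Cox4i2, the lung and oxygen-sensitive form, which stood at 0.347. Cox7a2 (152) exceeded the muscle form Cox7a1 (3.33). Ndufa4 (182), which is listed with complex I by its symbol but is known as a complex IV subunit, exceeded Ndufa4l2 (1.22), a form induced by hypoxia. The c subunit of the ATP synthase rotor is made from 3 genes with the same mature protein, and Atp5g3 stood at 214, Atp5g1 at 17.4 and Atp5g2 at 9.49. Of the stretches of 75 bases, the read length, in a member's transcripts, none was shared with another gene for 45 of the 84 members, and over 10% were shared for 17, up to 35.8% for Atp5g2, so the counts of those genes were less certain.

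Chow vehicle was compared with DIO-MASH vehicle to ask how the diet changed these transcripts. Scaled to the typical gene (edgeR's TMM factors), the 84 members summed to 16280 ± 2167 CPM in chow vehicle (SD, n = 8), with a lowest mouse at 12630, a median of 16160 and a highest at 19650, and to 11780 ± 802.9 CPM in DIO-MASH vehicle (10900, 11550 and 13270). The groups overlapped by 1 chow mouse, whose sum lay below the highest DIO-MASH vehicle mouse. The chow mean was 138% of the DIO-MASH vehicle mean. As an unscaled share of all counted reads, by contrast, the members made up 1.33% ± 0.173 in chow vehicle (SD, n = 8) and 1.33% ± 0.104 in DIO-MASH vehicle, so the difference in the sums came with the scaling.

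**Figure D1:**
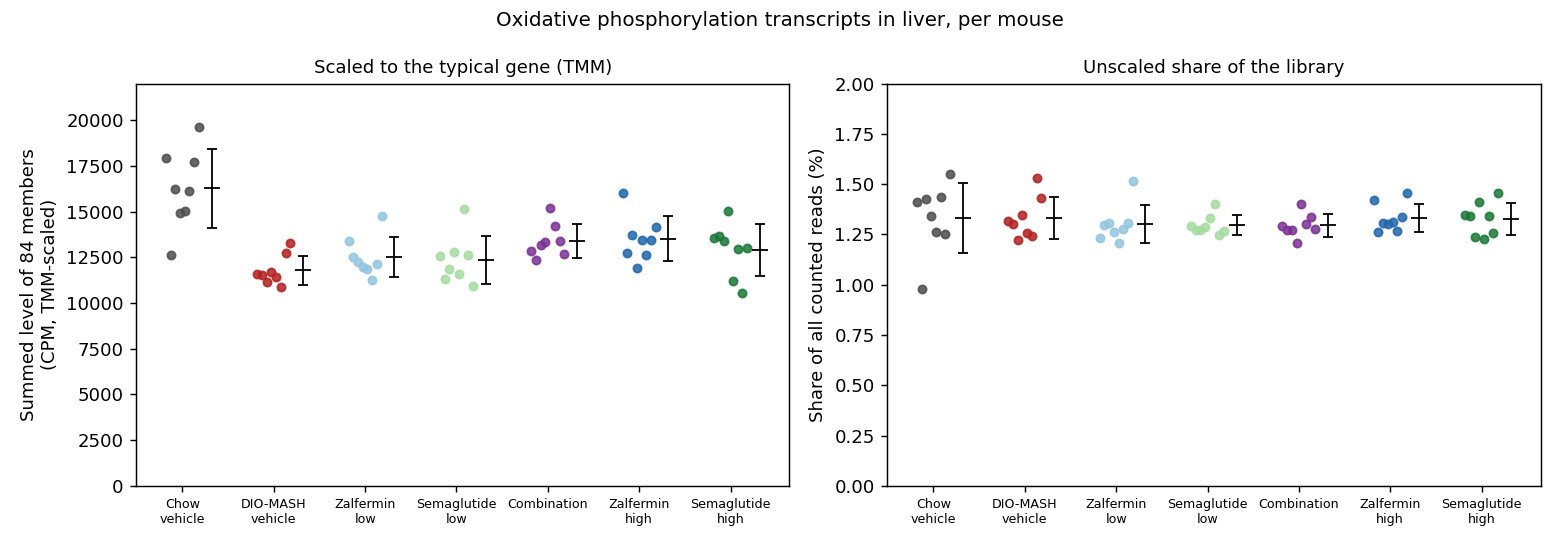
Summed level of the 84 tested subunit genes in each mouse (points) of the 7 groups, with the mean and SD (bars), in TMM-scaled CPM on the left and as a percentage of all counted reads on the right. On the left the chow mice sit mostly above the other groups, with a mean at 138% of DIO-MASH vehicle, while on the right both groups average 1.33% and the difference is gone.

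The most abundant genes took unequal parts of the libraries. The 100 most abundant genes, led by Alb, Scd1 and Apoe, took 46.4% ± 2.52 of reads in chow vehicle and 39.8% ± 1.03 in DIO-MASH vehicle (SD, n = 8 each), and only Atp5b and Atp5a1 of the members were among them. TMM factors averaged 0.822 in chow vehicle and 1.13 in DIO-MASH vehicle. With library totals in place of TMM, the median log2 fold change of all genes, chow over DIO-MASH vehicle, moved from -0.0072 to -0.465, and that of the members from 0.43 to -0.03. The distance between the members and all genes stayed at 0.434 to 0.438 on the log2 scale. The fold changes below are relative to the typical gene unless library totals are named.

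By edgeR's quasi-likelihood test, 75 of 84 members were higher in chow vehicle than in DIO-MASH vehicle and 2 were lower at an adjusted p under 0.05, whereas with library totals 9 were higher and 12 lower. Over all 14105 genes, 26.5% were higher and 28.9% lower with TMM, and 5.48% were higher and 60.5% lower with library totals. Without chow mouse 8, 68 members were higher and 2 lower with TMM, counts given without the share of all genes in that fit. In 12 members every chow mouse lay above every DIO-MASH vehicle mouse, as did 6.48% of all genes. Of the 77 members called, 39 changed sign with library totals and 11 kept both their call and their direction. Higher on both scales were Atp5g1, Atp5h and Atp5o of the ATP synthase and Sdhb of complex II. So were Ndufb9, Ndufb10, Ndufb11, Ndufv1 and Ndufv3 of complex I. Of the 75-base stretches of Atp5o, Atp5h and Ndufb9, 34.2%, 14.6% and 13.4% were shared with other genes, so their counts were less certain. Lower on both scales were Ndufa4l2 and, at fewer than 3 reads per chow mouse, Cox4i2.

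**Figure D2:**
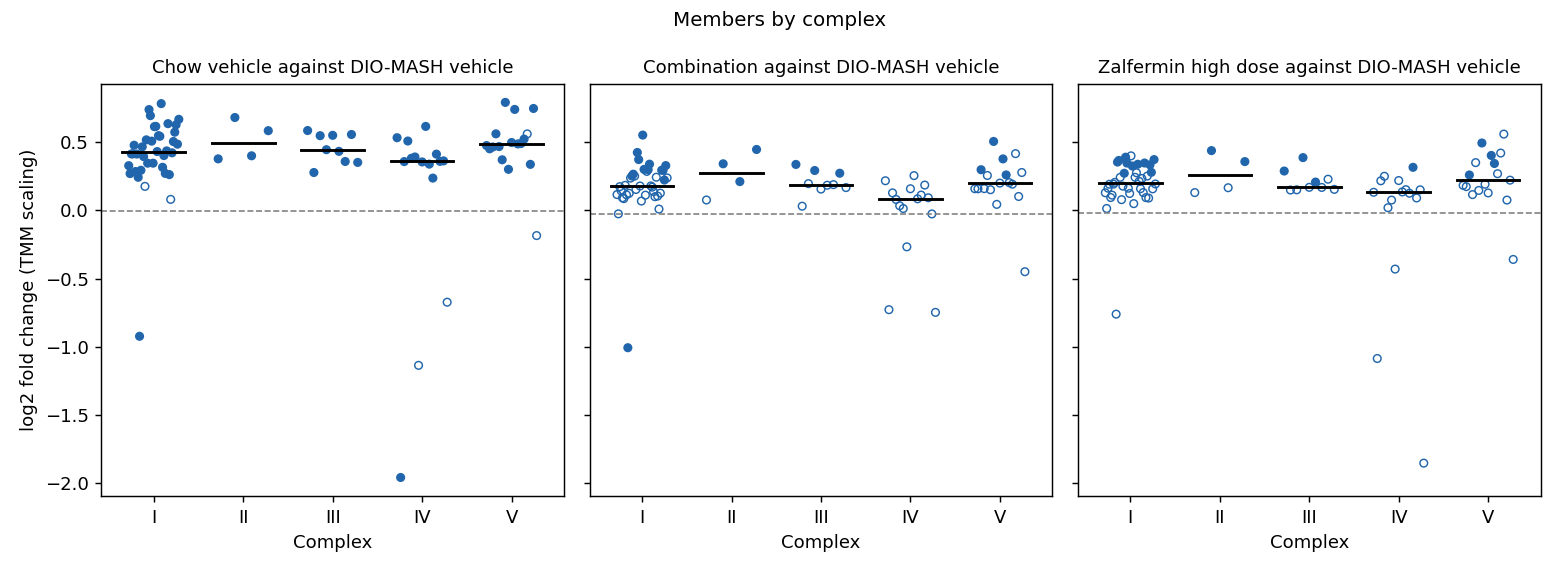
log2 fold change of each member against DIO-MASH vehicle (TMM scaling) by complex, for chow vehicle, the combination and high-dose zalfermin, where filled points passed an adjusted p of 0.05, bars are medians and the dashed line is the median of all genes. Complex medians lie above the line in all 3 panels, at 0.36 to 0.49 for chow vehicle, and with library totals the median over all members falls to -0.03, -0.05 and -0.01 in the 3 panels.

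In complex I, the NADH dehydrogenase, 35 of 38 members were higher and 1 lower in chow vehicle, with a median log2 fold change of 0.43 (TMM scaling; the family's median turned negative with library totals). The largest rises were in the membrane arm, with Ndufb9 at 0.78 and Ndufb10 at 0.74. The level of Ndufb11, an accessory subunit of that arm encoded on the X chromosome, ran from 121.5 CPM through a median of 160.1 to 197.3 in chow vehicle and from 84.25 through 99.45 to 111.9 in DIO-MASH vehicle. The groups did not overlap. The log2 fold change was 0.69 (SE 0.0908, edgeR adjusted p = 8.18e-09), and 0.23 with library totals (edgeR adjusted p = 0.00615). Among the core subunits, Ndufv1, which binds NADH, rose by 0.63, Ndufs3 by 0.63, Ndufs8 by 0.57, Ndufs7 by 0.50, Ndufv2 by 0.48 and Ndufs1, the largest iron-sulfur subunit, by 0.27 on the log2 scale. With library totals Ndufv1 still rose, by 0.16 (edgeR adjusted p = 0.0424), Ndufs1 fell by 0.18 (edgeR adjusted p = 0.0468) and the other 4 lay between 0.02 and 0.17 without passing. Ndufa8 and Ndufs5 did not pass, at 0.18 and 0.08 (edgeR adjusted p = 0.127 and 0.652).

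Ndufa4l2 went the other way within complex I. Its level was low, with a lowest, median and highest mouse of 0.2081, 1.101 and 1.656 CPM in chow vehicle and 1.27, 1.917 and 2.765 CPM in DIO-MASH vehicle, or 78 and 202 reads in all. The groups overlapped, with the chow mice lower. The log2 fold change was -0.92 (SE 0.294, edgeR adjusted p = 0.0067), and -1.41 with library totals. Cox4i2 of complex IV was the other member counted as lower, on 0 to 2 reads per chow mouse (8 in all) and 2 to 13 reads per DIO-MASH vehicle mouse (46 in all). It passed the read filter only through mice of other groups than chow, where it was higher, so its fitted log2 fold change of -1.96 is a description and supports nothing. Ndufa4l2 is the minor form of a subunit whose major form, Ndufa4, rose with TMM. Of 5 smooth muscle and pericyte markers, Myh11 was higher and 3 were lower in chow vehicle, and their part in these differences was not tested. The 5 markers summed to 185 CPM in chow mouse 8 against 36.4 to 59.7 in the other chow mice. Myh11 without that mouse is not given.

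In complex II, succinate dehydrogenase, all 4 members were higher in chow vehicle, with a median log2 fold change of 0.49. Sdhd, a membrane anchor subunit, had a level of 224.4, 271.8 and 289.2 CPM (lowest, median and highest mouse) in chow vehicle and of 160.3, 177.1 and 197.4 CPM in DIO-MASH vehicle. The groups did not overlap. Sdhd rose by 0.58 on the log2 scale (SE 0.0641, edgeR adjusted p = 9.86e-11), the smallest adjusted p of any member, though with library totals the difference was 0.13 (edgeR adjusted p = 0.0755). Sdhb, the iron-sulfur subunit, ran from 225.7 through 245.4 to 355.3 CPM in chow vehicle and from 147.6 through 168.3 to 191.2 CPM in DIO-MASH vehicle, again without overlap. Its log2 fold change was 0.68 (SE 0.094, edgeR adjusted p = 2.99e-08), and 0.21 with library totals (edgeR adjusted p = 0.00719). Sdhc and Sdha, the other anchor and the catalytic flavoprotein, rose by 0.40 and 0.38 with TMM and stood at -0.07 and -0.08 with library totals, without passing.

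The promoters of Sdhd and Sdhb are shown because both genes also rose with the combination and with high-dose zalfermin, and that of Atp5g1 because it rose in the same comparisons and had the largest change in chow vehicle. Each is 300 bases of GRCm38.p6 from RefSeq, 250 before to 50 after the gene's start, written 5′ to 3′ on the gene's strand, at chr9:50603800-50604099 (minus strand) for Sdhd, chr4:140961021-140961320 (plus strand) for Sdhb and chr11:96075582-96075881 (minus strand) for Atp5g1. Capitals mark matches, on either strand, to words known from mitochondrial gene promoters. These were GCGCATGC of NRF1, CCGGAAG of the ETS family that includes GABP, TCAAGGTCA of the oestrogen-related receptors (ERR), and AAGATGGCG of YY1.
Sdhd: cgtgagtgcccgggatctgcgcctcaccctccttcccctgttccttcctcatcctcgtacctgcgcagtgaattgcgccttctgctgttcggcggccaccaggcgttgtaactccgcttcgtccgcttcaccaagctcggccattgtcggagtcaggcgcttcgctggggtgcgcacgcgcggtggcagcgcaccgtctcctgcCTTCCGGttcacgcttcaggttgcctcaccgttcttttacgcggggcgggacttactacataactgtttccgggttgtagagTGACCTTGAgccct
Sdhb: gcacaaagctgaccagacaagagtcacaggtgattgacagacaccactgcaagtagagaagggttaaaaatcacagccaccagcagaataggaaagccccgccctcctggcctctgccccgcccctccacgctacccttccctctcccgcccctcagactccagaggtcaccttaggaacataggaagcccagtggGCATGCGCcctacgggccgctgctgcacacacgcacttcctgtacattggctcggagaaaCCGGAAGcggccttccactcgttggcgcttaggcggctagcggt
Atp5g1: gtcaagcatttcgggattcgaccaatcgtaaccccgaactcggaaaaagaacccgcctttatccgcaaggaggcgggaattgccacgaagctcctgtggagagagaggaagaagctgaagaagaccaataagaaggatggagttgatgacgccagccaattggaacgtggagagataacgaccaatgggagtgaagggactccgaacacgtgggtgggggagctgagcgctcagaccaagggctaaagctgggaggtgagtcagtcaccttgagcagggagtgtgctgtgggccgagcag
The Sdhd window held an ETS word and an ERR word, the Sdhb window an NRF1 word and an ETS word, and the Atp5g1 window none of the 4. A promoter was matched for 69 of the 84 members. A gene was counted when any of its promoters held the word. The NRF1 word was in 11 of the members (15.9%) against 3.05% of all 27025 RefSeq genes with a promoter. The ETS word was in 16 (23.2%) against 9.93%, and the YY1 word in 7 (10.1%) against 1.64%. The ERR word was in 2 (2.9%), Sdhd and Atp5g3, against 0.466%. At least 1 word was in 29 members (42%) and in 14% of all these genes. A match describes letters only and is no evidence of binding in these livers.

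In complex III, cytochrome bc1, all 9 members were higher in chow vehicle, with a median log2 fold change of 0.44 (TMM). Cyc1, the haem-carrying cytochrome c1, ran from 213.1 through 277.4 to 341.3 CPM in chow vehicle and from 171.1 through 187.5 to 211.5 in DIO-MASH vehicle. The groups did not overlap, and the log2 fold change was 0.58 (SE 0.0782, edgeR adjusted p = 1.36e-08), or 0.12 with library totals (edgeR adjusted p = 0.108). The core proteins Uqcrc1 and Uqcrc2 and the Rieske iron-sulfur protein Uqcrfs1 rose by 0.55, 0.43 and 0.36 with TMM, and with library totals stood at 0.09, -0.03 and -0.10 without passing. The call of Uqcr10, a small subunit at 0.28 with TMM, was lost in 12 of 25 other settings, 8 of which left out 1 mouse, and its value with library totals was -0.18. Cycs, cytochrome c itself, had overlapping levels in the groups, 13.17, 24.63 and 32.61 CPM in chow vehicle and 17.92, 24.65 and 30.24 CPM in DIO-MASH vehicle. Its log2 fold change was -0.0016 (SE 0.135, edgeR adjusted p = 0.992) with TMM and -0.46 with library totals (edgeR adjusted p = 0.00144). Of the 75-base stretches of its transcripts 23.9% were shared with other genes.

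In complex IV, cytochrome c oxidase, 12 of 15 tested members were higher and 1 lower in chow vehicle, with a median of 0.36 (TMM). Cox4i1, the main form of subunit IV, ran from 446.7 through 592.7 to 779.3 CPM in chow vehicle and from 366.9 through 411.7 to 531.8 in DIO-MASH vehicle. The groups overlapped, and the log2 fold change was 0.53 (SE 0.0985, edgeR adjusted p = 9.94e-06), or 0.06 with library totals (edgeR adjusted p = 0.518). Cox5b and Cox5a, matrix-side subunits, rose by 0.51 and 0.36, and the liver forms Cox6b1, Cox6a1, Cox8a and Cox7a2 by 0.34 to 0.39, with TMM. None of these 6 passed with library totals, at 0.05 for Cox5b and -0.12 to -0.07 for the others. Cox7a2l, a supercomplex assembly factor rather than a fixed subunit, rose by 0.24 with TMM (edgeR adjusted p = 0.00154) and was lower with library totals, at -0.23 (edgeR adjusted p = 0.00784). Cox7a1, the muscle form, also passed at 0.61 (SE 0.268, edgeR adjusted p = 0.047), but its chow median of 1.386 CPM lay below the DIO-MASH vehicle median of 1.527, and the call came with chow mouse 8 at 7.015 CPM and mouse 3 at 4.566. The call was lost in 14 of 25 other settings, 8 of which left out 1 mouse. Smooth muscle and pericyte markers summed to 185 CPM in chow mouse 8 against 36.4 to 59.7 in the other chow mice. Cox8b and Cox6b2 did not pass, at -0.67 and -1.135 (edgeR adjusted p = 0.428 and 0.0865).

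In complex V, 15 of 17 members were higher in chow vehicle, with a median of 0.49 (TMM). Atp5g1 had a level of 85.34, 111.3 and 140.3 CPM (lowest, median and highest mouse) in chow vehicle and of 57.15, 63.81 and 79.06 CPM in DIO-MASH vehicle. The groups did not overlap. Its log2 fold change was 0.79 (SE 0.108, edgeR adjusted p = 2.27e-08), the largest of any member, and 0.32 with library totals (edgeR adjusted p = 0.00153). The other c-subunit genes, Atp5g3 and Atp5g2, rose by 0.50 and 0.30 with TMM and stood at 0.03 and -0.15 with library totals. The Atp5g2 call was lost in 13 of 25 other settings, 8 of which left out 1 mouse. The stalk subunits Atp5o and Atp5h rose by 0.75 and 0.74, and by 0.28 and 0.27 with library totals. Atp5d, Atp5a1, Atp5c1 and Atp5b, all of the matrix-side F1 part, rose by 0.56, 0.47, 0.46 and 0.45 with TMM and stood between -0.01 and 0.10 with library totals, without passing. Atp5l, listed at 0.195 CPM per kilobase, and Atp5s, a coupling factor that textbooks do not count as a subunit, did not pass, at 0.56 and -0.19 (edgeR adjusted p = 0.0752 and 0.38).

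The treated groups were each compared with DIO-MASH vehicle to ask whether dosing changed these transcripts. All such comparisons share the 8 DIO-MASH vehicle mice. The 84 members summed to 13400 ± 926.1 CPM in the combination, 13520 ± 1238 with high-dose zalfermin, 12910 ± 1439 with high-dose semaglutide, 12520 ± 1095 with low-dose zalfermin and 12350 ± 1305 with low-dose semaglutide (SD, n = 8 each), or 114%, 115%, 110%, 106% and 105% of DIO-MASH vehicle. Each treated range overlapped that of DIO-MASH vehicle. As an unscaled share the 5 means lay between 1.29% and 1.33% of reads, at or just below the 1.33% of DIO-MASH vehicle. The 100 most abundant genes took 43.5% of reads in the combination and 42.5% with high-dose zalfermin.

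**Figure D3:**
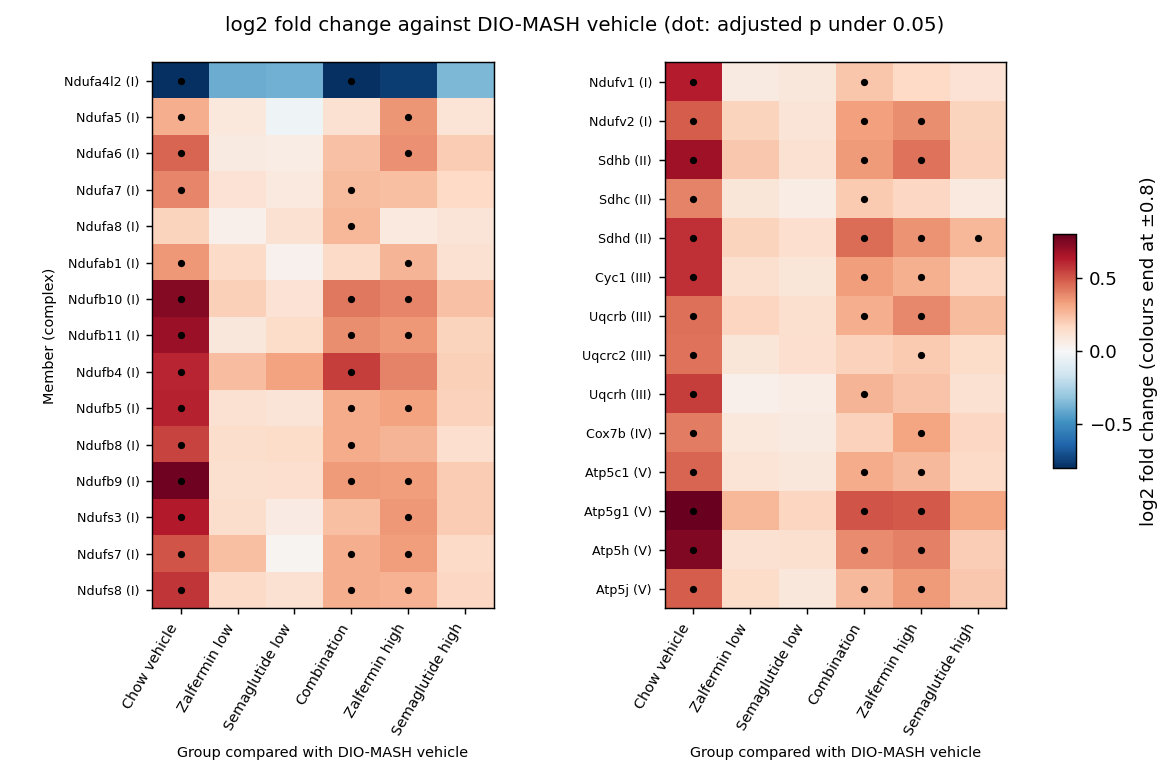
log2 fold change against DIO-MASH vehicle (TMM scaling, colour) of the 29 members called in at least 1 treated group (rows, with the complex) in the 6 other groups (columns), with dots at an adjusted p under 0.05. Of the 29, 28 have a dot in the chow column, 23 in the combination column, 21 in the high-dose zalfermin column, 1 for high-dose semaglutide and 0 at the low doses, and with library totals 5, 6 and 0 of all members are called in the combination and at the high doses of zalfermin and semaglutide.

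With the combination 22 members were higher and 1 lower (edgeR, adjusted p under 0.05, TMM), and with library totals 2 were higher and 3 lower. Over all genes, 10% were higher and 10.9% lower with TMM, and 3.15% were higher and 28.7% lower with library totals. The median log2 fold change was 0.18 for the members and -0.03 for all genes, and -0.05 and -0.25 with library totals. By complex, 12 of 38 members of complex I, 3 of 4 of complex II, 3 of 9 of complex III and 4 of 17 of complex V were higher, and 0 of 15 of complex IV by edgeR and by DESeq2, 1 of them at an unadjusted p under 0.05 in each. In 4 members, Sdhd, Ndufb11, Atp5g1 and Atp5c1, every combination mouse lay above every DIO-MASH vehicle mouse, as did 2.10% of all genes.

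Sdhd ran from 202.1 through 242.2 to 259.7 CPM in the combination, above the DIO-MASH vehicle range. Its log2 fold change was 0.45 (SE 0.064, edgeR adjusted p = 7.37e-07), and 0.22 with library totals (edgeR adjusted p = 0.00618). Atp5g1 ran from 83.51 through 88.51 to 110.2 CPM, also above that range. It rose by 0.50 on the log2 scale (SE 0.108, edgeR adjusted p = 0.000517), and by 0.28 with library totals (edgeR adjusted p = 0.0144). These were the only higher members called on both scales. Ndufb4, a small membrane-arm subunit, had the largest rise, 0.55 (SE 0.146, edgeR adjusted p = 0.00477), on levels of 8.838, 10.82 and 18.1 CPM against 5.467, 7.998 and 9.598 CPM in DIO-MASH vehicle, which overlapped. With library totals its value was 0.32 (edgeR adjusted p = 0.0514). Ndufb10 and Ndufb11 of the membrane arm rose by 0.42 and 0.37 and Atp5h by 0.38 with TMM, and stood at 0.19, 0.15 and 0.15 with library totals, without passing. Ndufa4l2 fell by 1.01 (SE 0.291, edgeR adjusted p = 0.00998) and by 1.22 with library totals, to 0.1542, 0.952 and 1.74 CPM. With library totals Ndufa10 of complex I and Atp5s were also lower, where TMM gave -0.03 and -0.45 (edgeR adjusted p = 0.855 and 0.0599). Pericyte and smooth muscle markers fell in 3 of 5 genes and stellate cell markers in 4 of 5 in the same comparison, and their part was not tested.

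With high-dose zalfermin 21 members were higher and 0 lower by edgeR (TMM), and with library totals 2 were higher and 4 lower. At an unadjusted p under 0.05 there were 4 lower members, and DESeq2 called 23 higher and 1 lower. The share of all genes at that threshold or by DESeq2 is not given. Over all genes, 8.54% were higher and 8.68% lower with TMM, and 3.52% were higher and 22.6% lower with library totals. The median was 0.19 for the members and -0.02 for all genes, and -0.01 and -0.21 with library totals. The higher members were 11 of complex I, 2 of complex II, 3 of complex III, Cox7b of complex IV and 4 of complex V. Sdhb, Sdhd, Ndufb11, Atp5c1 and Uqcrc2, 5 members, did not overlap with DIO-MASH vehicle, as did not 2.33% of all genes.

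Sdhb ran from 213 through 224.5 to 265.8 CPM with high-dose zalfermin, against at most 191.2 in DIO-MASH vehicle. Its log2 fold change was 0.44 (SE 0.0938, edgeR adjusted p = 0.000571), and 0.24 with library totals (edgeR adjusted p = 0.00773). Atp5g1 ran from 70.83 through 89.15 to 122.7 CPM and overlapped DIO-MASH vehicle. It rose by 0.49 on the log2 scale (SE 0.108, edgeR adjusted p = 0.000723) and by 0.29 with library totals (edgeR adjusted p = 0.0127). Sdhd, at 209.3, 226.5 and 253.9 CPM, rose by 0.36 (SE 0.064, edgeR adjusted p = 4.61e-05), but with library totals stood at 0.16 (edgeR adjusted p = 0.0509). Ndufb10, Atp5h and Uqcrb, the ubiquinone-binding subunit of complex III, rose by 0.39, 0.40 and 0.39 with TMM and stood at 0.19, 0.20 and 0.19 with library totals, without passing. Ndufa4l2 did not pass here, at -0.76 (edgeR adjusted p = 0.0595). Cycs did not pass in either group, at -0.07 in the combination and 0.03 with high-dose zalfermin.

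**Figure D4:**
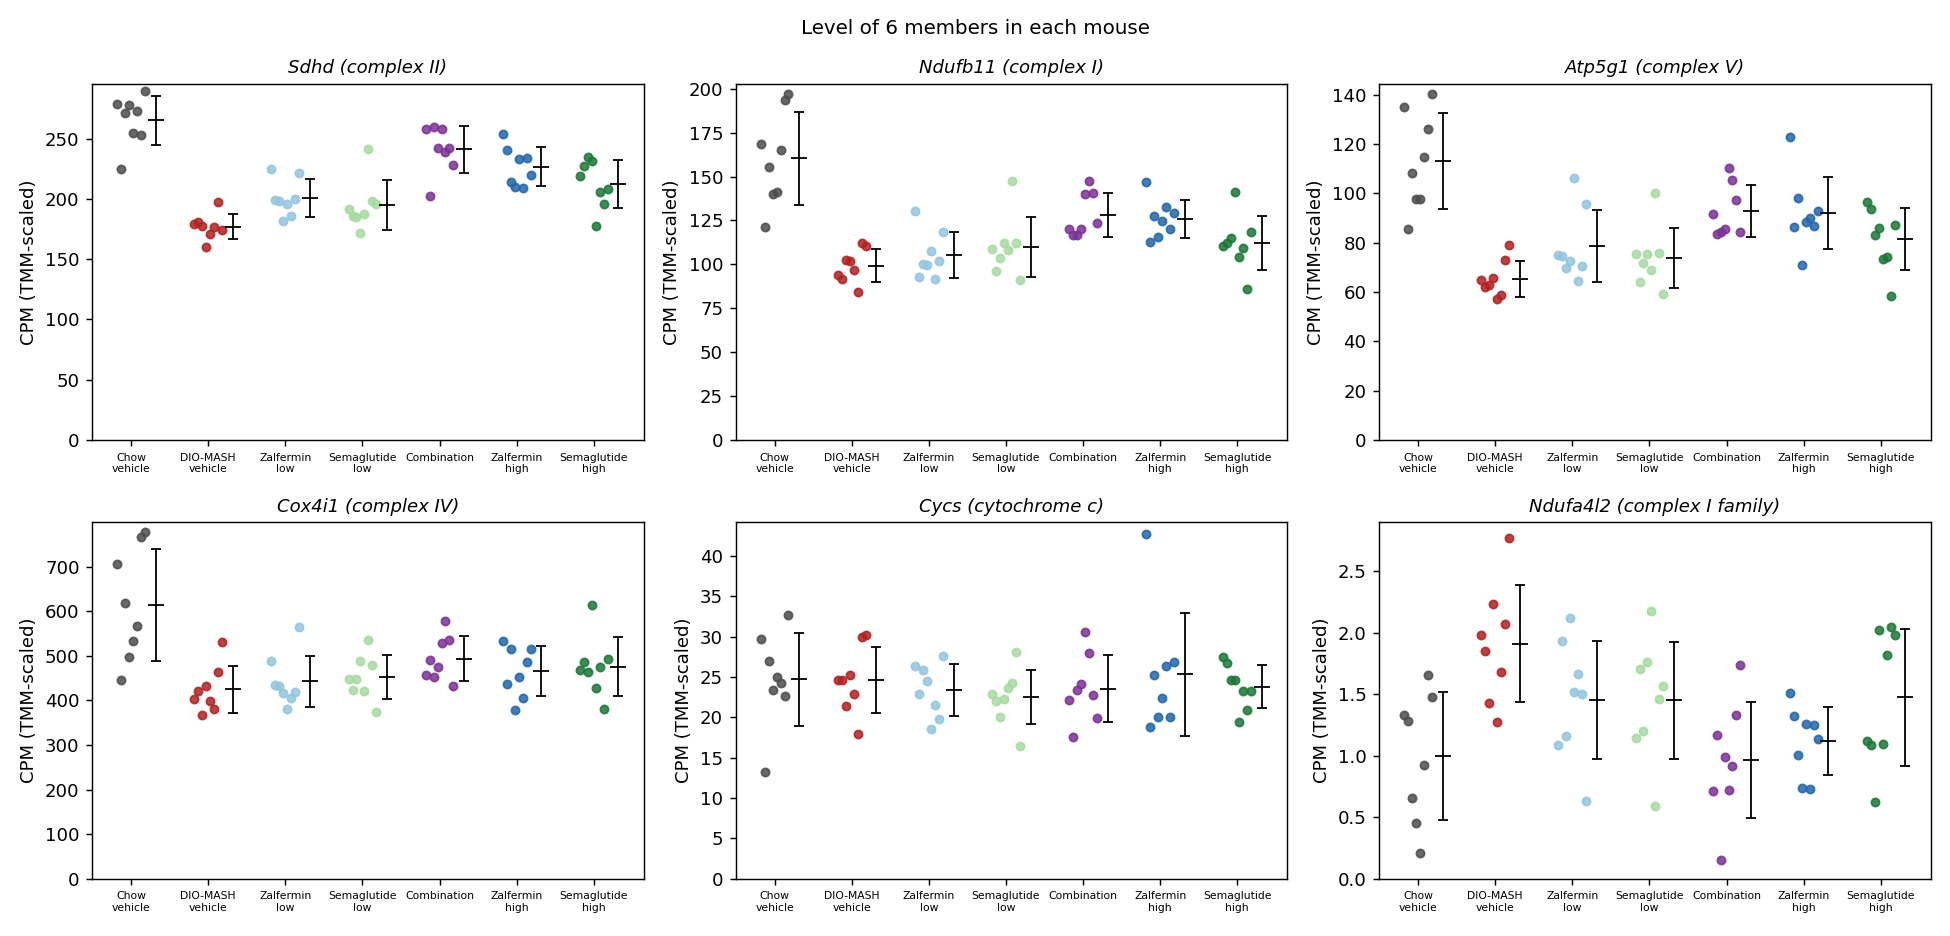
Level in TMM-scaled CPM of 6 members in each mouse (points) of the 7 groups, with the mean and SD (bars). For Sdhd every combination (202.1 to 259.7 CPM) and high-dose zalfermin (209.3 to 253.9 CPM) mouse lies above the highest DIO-MASH vehicle mouse at 197.4 CPM, a rise that stayed past the test with library totals in the combination only.

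High-dose semaglutide changed 1 member, Sdhd, among 1.43% of genes that were higher and 1% that were lower. Sdhd ran from 177.2 through 213.3 to 235.1 CPM and overlapped DIO-MASH vehicle. Its log2 fold change was 0.26 (SE 0.0639, edgeR adjusted p = 0.0187), and 0.13 with library totals (edgeR adjusted p = 0.247). The call was lost without semaglutide mouse 3 or 4, and 4 members were called without mouse 7. The share of all genes called in those fits is not given. At an unadjusted p under 0.05, 11 members were higher and 1 lower. Counts at an unadjusted p, here and elsewhere, are given without the share of all genes at that threshold. Low-dose zalfermin changed 0 members by edgeR, with 4 at an unadjusted p under 0.05 and 0 by DESeq2, among 0.468% of genes called in either direction. Low-dose semaglutide changed 0 members by edgeR, with 2 at an unadjusted p under 0.05 and 0 by DESeq2, among 0% of genes called. This was also so without mouse 6. The members' medians at these doses were 0.08 and 0.06 with TMM and -0.04 and -0.05 with library totals. Sdhd stood at 0.18 with low-dose zalfermin (SE 0.0639, edgeR adjusted p = 0.201) and 0.14 with low-dose semaglutide (SE 0.0639, edgeR adjusted p = 0.549).

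The combination was set against each low dose to ask what the second agent added. Against low-dose zalfermin, Sdhd and Ndufb11 were higher, 2 members where 3.27% of all genes were higher. The log2 fold changes were 0.26 (SE 0.0639, edgeR adjusted p = 0.00643) and 0.28 (SE 0.0905, edgeR adjusted p = 0.0449). The Ndufb11 call was lost in 12 of 25 other settings, 9 of which left out 1 mouse. With library totals neither was called, at 0.16 and 0.18, and the single call was Ndufa10, lower at -0.21 (edgeR adjusted p = 0.028). On that scale 6.85% of all genes were lower. Against low-dose semaglutide, Sdhd alone was higher, by 0.31 (SE 0.0639, edgeR adjusted p = 0.002), where 1.93% of genes were higher, and stood at 0.19 with library totals without passing. Low-dose semaglutide mouse 6 had the highest Sdhd level of its group, 241.8 CPM. Without it 9 members were called, a count given without the share of all genes in that fit. The low-dose interaction, which asks whether the combination differed from the sum of the low-dose effects, was called in 0 members by edgeR, with 0 at an unadjusted p under 0.05 and 0 by DESeq2, among 0.0142% of genes. Its median over the members was 0.06. The high dose of zalfermin against its low dose gave 0 members by edgeR and 0 by DESeq2, among 1.84% of genes called in either direction. At an unadjusted p under 0.05, 15 members were higher and 0 lower. The share of all genes at that threshold is not given, so the 15 describe no move particular to the members.

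The combination and high-dose zalfermin stayed below chow vehicle on the TMM scale in the mean summed level. The combination reached 82.3% and high-dose zalfermin 83% of the chow mean of the summed level. Against chow vehicle, 41 members were lower in the combination, where 15.0% of all genes were lower, and 42 with high-dose zalfermin, where 17.6% were lower. The medians were -0.25 and -0.23, and -0.02 and 0.04 with library totals, which called 2 members higher and 1 lower in the combination and 5 higher and 2 lower with high-dose zalfermin. Over all genes, library totals called 34.4% and 38.7% higher and 4.3% and 3.96% lower in these comparisons. Atp5b, the catalytic beta subunit of the ATP synthase, ran from 1316 to 1602 CPM in the combination, 1286 to 1520 CPM with high-dose zalfermin and 1520 to 1974 CPM in chow vehicle. Its log2 fold changes against chow vehicle were -0.29 (SE 0.0644, edgeR adjusted p = 0.000385) and -0.28 (SE 0.0644, edgeR adjusted p = 0.000618), and -0.06 and -0.0087 with library totals, without passing. Sdhd stood at -0.14 against chow vehicle in the combination (SE 0.0639, edgeR adjusted p = 0.0922), and fell by 0.23 with high-dose zalfermin (SE 0.064, edgeR adjusted p = 0.00434), where library totals turned the sign, to 0.04 (edgeR adjusted p = 0.668). Hepatocyte markers were lower than in chow vehicle in 7 and 6 of 8 genes in these comparisons, and their part was not tested.

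Other mitochondrial genes from fixed lists were counted in the same edgeR fits, with TMM. Against DIO-MASH vehicle, 15 of 46 assembly factors of complexes I to V were higher and 1 lower in chow vehicle, with a median log2 fold change of 0.19, where the members had 0.43 and 26.5% of all genes were higher and 28.9% lower. Ecsit and Ndufaf6 of complex I assembly rose by 0.54 and 0.70, and Cox19 fell by 0.31. A list of 18 genes covered the tricarboxylic acid cycle, which feeds the chain, and the entry of pyruvate (Pdha1, Pdhb, Dlat and Pcx). Of these 18, 7 were higher and 3 lower, with a median of 0.09. The lower genes were Idh2 at -0.26, Pdha1 at -0.27 and Pcx at -0.29. Of 25 mitochondrial carriers, import proteins and chaperones, 15 were higher and 3 lower, with a median of 0.30. Of 75 cytosolic ribosomal protein genes, short abundant transcripts like those of the members, 51 were higher and 0 lower, with a median of 0.27. In the combination these lists had 2, 4, 7 and 10 genes higher and 1, 0, 2 and 0 lower, where 10% of all genes were higher and 10.9% lower. With high-dose zalfermin they had 5, 4, 6 and 2 higher and 1, 2, 1 and 0 lower, where 8.54% and 8.68% of all genes were.

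Of 19 regulators of mitochondrial biogenesis, 14 were higher and 0 lower in chow vehicle, 5 and 0 in the combination, and 5 and 0 with high-dose zalfermin. Over all genes, 26.5%, 10% and 8.54% were higher and 28.9%, 10.9% and 8.68% lower in these comparisons. Ppargc1a, the coactivator PGC-1α, rose by 0.78 in the combination (SE 0.167, edgeR adjusted p = 0.000532), 0.79 with high-dose zalfermin (SE 0.168, edgeR adjusted p = 0.000543) and 0.39 in chow vehicle (edgeR adjusted p = 0.0482). Tfam, which packages and transcribes mitochondrial DNA, rose by 0.25, 0.31 and 0.41 in the same groups. Yy1 rose by 0.36 in the combination and 0.60 in chow vehicle. Gabpa, of the ETS family, rose by 0.30 with high-dose zalfermin and 0.55 in chow vehicle. Nrf1 rose by 0.33 in the combination and 0.30 in chow vehicle, and Esrra by 0.46 in chow vehicle. All values are with TMM, and those with library totals are not given. On that scale the median of all genes in chow vehicle was -0.465.

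On the TMM scale, hepatocyte markers differed from DIO-MASH vehicle in the direction of the members' medians. They were higher in 8 of 8 genes in chow vehicle, 7 in the combination and 8 with high-dose zalfermin. The median log2 fold changes were 1.37, 0.73 and 0.75. Their summed level ran from 84400 to 134000 CPM in the combination and from 76900 to 134000 with high-dose zalfermin. Marker tests with library totals are not given, and on that scale the members' medians were -0.03, -0.05 and -0.01. Stellate cell markers were lower in 4, 4 and 2 of 5 genes. Macrophage markers were lower in 4 of 6 genes in chow vehicle, among them Trem2 at -4.8 and Gpnmb at -6.09 on the log2 scale, as were 2 of 2 T cell and 3 of 3 B cell markers tested. The B cell markers summed to a median of 2.12 CPM (0.768 to 2.95) in chow vehicle and 3.14 CPM (1.43 to 31.7) in DIO-MASH vehicle. DIO-MASH vehicle mice 1 and 2 stood highest, at 31.7 and 26.2 CPM, and also enter the treated comparisons. In the combination 1 macrophage marker was higher and 1 B cell marker lower, and with high-dose zalfermin 1 macrophage marker was higher and 1 lower. The part of cell composition in the members' differences was not tested.

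Within groups the members varied together. After each group's mean was removed, the median pairwise Pearson correlation of log2 CPM over the 56 mice was 0.62 among the 81 members averaging at least 1 CPM, from 0.56 within complex III to 0.66 within complex I, and -0.03 between members and other genes. These values share library, depth and scaling and are a description only. The members least like the rest were Atp5s, with a median correlation of -0.20 with the other members, Ndufa4l2 (0.02), Atp5l (0.13) and Ndufs1 and Cox7a2l (both 0.17).

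The mice carried numbers in 4 series, of 22, 15, 16 and 3 mice, whose meaning the labels do not give. Within each of the 3 larger series, the members' median log2 difference from DIO-MASH vehicle was 0.35, 0.50 and 0.34 for chow vehicle, 0.15, 0.40 and 0.14 for the combination, and 0.29, 0.14 and 0.25 for high-dose zalfermin, on 1 to 4 mice a group. For high-dose semaglutide it was 0.26, 0.09 and 0.01.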

How the data were processed

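Libraries were prepared from 15 to 20 mg of liver with a stranded mRNA kit and sequenced on an Illumina NextSeq instrument for 75 cycles. The authors deposited raw counts of reads per gene, not normalized. Their methods name STAR and GRCm38 with Ensembl genes, whereas the submitters' processing notes name Trim Galore 0.6.4 and Salmon 1.9.0. The counting program and its use of strand are not given in the sources used here. All values were whole numbers and no columns were duplicated.

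Counts were fitted in edgeR 4.0.16 (R 4.3.3) with TMM factors, 1 quasi-likelihood model of all 7 groups, two-sided tests and Benjamini-Hochberg adjustment over 14105 genes (threshold 0.05). The biological coefficient of variation was 22.6%. Replicates were separate mice. DESeq2 1.42.0, library totals, other read filters, the number series as a covariate, only the groups compared, and leaving out each mouse were alternatives, as were runs of label numbers as a block, chosen after seeing the data. Exon lengths came from GENCODE M21. In counts simulated for chow vehicle against DIO-MASH vehicle over 14105 genes, edgeR recovered 86 of 100 genes changed by 1 on the log2 scale and 28 of 100 changed by 0.5. The changed genes were drawn at random from all genes tested, at any read depth, with the same spread for every gene. These shares therefore do not give the recovery for the members.

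The members and lists were chosen with earlier results of these data known. Named members were up to 5 called in each direction with the largest change per treatment comparison (at least 1 CPM), core subunits, isoform pairs, non-subunits, and members called against their complex. The values of 1 gene are not reported here.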

Additional observations from a re-analysis of the deposited data

Results flagged for a closer look

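Summed levels and named members were searched in each group of 8 for a mouse set apart from the others, by Dixon's ratio of its gap to the range. Of 203 sets, 27 had such a mouse. Chance gives about 1 in 20 for unrelated sets, but these sets share mice and members, so the 27 cannot be read against that rate.

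Low-dose semaglutide mouse 6 accounted for 12 of the 27, always as the highest mouse, with a summed level of 15120 CPM over all members, 1862 CPM for complex III, 2152 CPM for complex IV and 5709 CPM for complex V. Its levels were 70.5 CPM for Ndufs7, 147.6 CPM for Ndufb11, 241.8 CPM for Sdhd, 254.2 CPM for Cyc1, 110.5 CPM for Uqcrb, 149.4 CPM for Cox7b, 1594 CPM for Atp5b and 99.94 CPM for Atp5g1. High-dose zalfermin mouse 1 was highest for Uqcrb (145.7 CPM), Cycs (42.67 CPM), Cox7b (183.4 CPM) and Atp5c1 (285.9 CPM). Low-dose zalfermin mouse 8 was highest for complex IV (2182 CPM), Atp5o (199 CPM) and the members' share of reads (1.518%).

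DIO-MASH vehicle mouse 8 was highest for complex V (5013 CPM), Atp5h (203.1 CPM) and Atp5o (201.2 CPM), and mouse 7 for Cox7b (130.4 CPM). In the combination, mouse 5 was highest for complex III (1925 CPM), mouse 6 for Ndufb4 (18.1 CPM) and Ndufb10 (186.8 CPM), and mouse 1 was lowest for Ndufv1 (162.6 CPM).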

How the results depend on the processing

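Scaling moved the larger counts of called members most. With library totals, 21 members were called for chow vehicle against DIO-MASH vehicle, 5 in the combination, 6 at the high dose of zalfermin and 0 at that of semaglutide, 1 and 0 for the combination against low-dose zalfermin and low-dose semaglutide, and 3 and 7 for the combination and high-dose zalfermin against chow vehicle. The medians became -0.0314, -0.0501 and -0.0117 in the same order, semaglutide aside. With the number series as a covariate, 35 members were called for high-dose zalfermin against DIO-MASH vehicle, 3 for the combination against low-dose semaglutide, and 23 and 22 for the combination and high-dose zalfermin against chow vehicle. With only the groups compared in the fit, the counts were 0 for high-dose semaglutide, 1 and 0 for the combination against low-dose zalfermin and low-dose semaglutide, and 25 and 27 against chow vehicle. A filter of 1 read left 1 member for the combination against low-dose zalfermin, and DESeq2 called 5 against low-dose semaglutide. Most counts in this section are given without the share of all genes called in the same setting. They do not show whether the members moved more than other genes. For these moves the cause was not tested.

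Leaving out single mice gave 70 to 79 calls for chow vehicle, 14 (without combination mouse 5) to 27 in the combination, 13 (without mouse 1) to 24 at the high dose of zalfermin, 0 (without mouse 3 or 4) to 4 (without mouse 7) at that of semaglutide, and 0 to 0 at each low dose. The combination gave 1 to 2 calls against low-dose zalfermin and 1 to 9 (without mouse 6) against low-dose semaglutide. High-dose against low-dose zalfermin gave 0 to 1, and the interaction 0 to 0. Against chow vehicle, the combination gave 25 (without chow mouse 8) to 57 (without chow mouse 2) and high-dose zalfermin 29 (without chow mouse 7) to 50 (without chow mouse 2). The replicate numbers were given in accession order and pair no mice, but the label numbers fall into 13 runs (a new run at a gap of 5 or more) whose meaning the labels do not give. Mice of the same run and different groups correlated at a median of 0.05 in their deviations from the group means, over 0.1 in 39 of 114 pairs. Mice of different series and groups had a median of -0.00918, over 0.1 in 208 of 933 pairs. The main fit did not take the runs as pairs, and whether mice of a run were matched is not known. With the run as a block, a fit chosen after seeing the data, 44 members were called for the combination, 39 at the high dose of zalfermin and 2 at that of semaglutide against DIO-MASH vehicle, and 5 for the combination against low-dose semaglutide. The share of all genes called in that fit is not given, so these counts describe no move particular to the members. The low counts of Cox4i2, Cox8b and Cox6b2 limit what their fold changes can show.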
